A study of Mus musculus with 30 samples.

Results

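The cerebellum of knock-in (KI) mice for spinocerebellar ataxia 7 (SCA7) was compared between postnatal day 22 (P22) and week 11. The comparison took the 4 samples titled as KI at P22 and the 6 titled as KI at week 11, 10 of the 30 samples of the series, each a separate female mouse with its own number in the labels. The younger mice had been decapitated and the older ones killed by cervical dislocation, so age and killing method cannot be told apart in any value below. Cerebella went into RNAlater and were frozen. The remaining mice of these ages, 5 wild-type (WT) at P22 and 5 WT at week 11, were handled in the same way and serve only to ask whether a change between the ages differed by genotype. RNA of each mouse was amplified and labelled with Cy5, and 1 RNA pool of all the WT and KI mice at P10, labelled with Cy3, was put on every array. The labels give no repeat length, background strain or clinical state.

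SCA7 is an inherited degeneration of cerebellum and retina. It is caused by a lengthened CAG repeat in Atxn7, whose product sits in the deubiquitinating module of the SAGA chromatin complex. Between weaning and young adulthood the mouse cerebellum ends its main phase of myelination. Oligodendrocytes then turn from building sheaths to maintaining them, and brain cells make less of their own cholesterol, a main lipid of myelin. A whole cerebellum mixes many granule neurons with few Purkinje cells, glia, vessels, blood and, where it was not trimmed away, choroid plexus.

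Each level is the log2 ratio of Cy5 to Cy3, the mouse over the P10 pool, so levels of different genes cannot be ranked against each other. Each difference is the week 11 mean minus the P22 mean on that log2 scale, followed by its standard error (SE) from a limma model. Adjusted p values are limma's, with Benjamini-Hochberg adjustment over all probes tested and a threshold of 0.05. "Rose" and "fell" are used only past that threshold. A gene with several probes is given by 1 probe. Cy5 was well above background on 69.2% to 89.7% of the spots of an array. The Purkinje and granule cell genes Pcp2, Gabra6 and Cbln1 were well above background on all 10 arrays. The P22 mice correlated with each other at r from 0.721 to 0.864 over probes, and the week 11 mice at 0.595 to 0.951. Week 11 mouse 21 stood apart: it gave the lowest of these correlations and the smallest array weight of the 10 mice, 0.379 (mouse 19 had 0.387), and it was the outlying mouse in 17 of 28 such cases among the genes and lists examined. It was kept.

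Between P22 and week 11, 454 of 33342 probes passed in the KI mice (1.36%), 188 higher (0.564%) and 266 lower (0.798%) at week 11. Large changes were mostly falls: of 81 probes that changed more than 2-fold, 68 fell. Read by the brightest probe of each gene, 298 of 17601 genes passed (1.69%), 112 higher (0.636%) and 186 lower (1.06%), and the median difference over all genes was -0.02. Passed or not, 9375 of the 17601 genes were lower at week 11. That share belongs beside each count of list members lower or higher given below. The deepest falls among named genes were in myelin genes. Some cholesterol synthesis genes fell too, and among the rises were genes of the clock and of antigen presentation. The groups of P22 and week 11 mice did not overlap for 367 of the 454 probes, against 5.4% of all probes and 6.9% of all genes tested. The 454 were chosen by their difference between these same mice, so the larger share follows from the choice and is no support for the calls.

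The count of passing probes depended on single mice. It was 902 without week 11 mouse 21 and 121 without P22 mouse 13, and it also dropped by more than 1.5 times without P22 mice 11 (164), 12 (178) or 17 (279) or without week 11 mice 15 (246), 16 (269) or 22 (241). Arrays lay on slides, and some slides held both ages. On slide 4, with P22 mouse 13 and week 11 mice 15 and 16, all 448 of these probes with a value had the same direction. On slide 7, with P22 mouse 17 and week 11 mouse 22, 440 of 442 did. The probes were chosen in a fit that holds these mice, so the shared direction is a description and no independent check. With slide as a block in the model 1965 probes passed, 355 of them among the 454. Only slides 4 and 7 held KI mice of both ages, so a slide block rests the KI step mainly on their mice. P22 mice 11 and 12 then add nothing to it, and week 11 mice 19, 21 and 34 add only indirectly. With scan day as a block all P22 mice count, but those week 11 mice again share no scan day with a P22 mouse. The scaling moved the split of directions: 41.4% of passing probes were higher as reported, 78% of 150 when arrays were only centred on their medians, and 10.7% of 2052 from the Cy5 channel alone, where the median over all genes moved to -0.19.

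Atxn7, the targeted gene, was read by 1 probe. It stood at 0.45, -0.10, -0.10 and 0.26 in P22 mice 11, 12, 13 and 17, and at week 11 between -0.01 and 1.05 with a median of 0.61. The ages overlapped. The difference of 0.48 ± 0.21 (SE, n = 4 and 6) had an adjusted p of 0.311, and an exact permutation test of this gene alone, two-sided, gave p = 0.0571, where 0.00952 is the smallest it can give. That p was 0.0159 without week 11 mouse 21, the smallest possible with a week 11 mouse left out, and 0.143 without P22 mouse 12 or 13. With slide as a block the difference was 0.80 and passed in limma. Differences within slides 4 and 7, the slides that this block mainly rests on, were 0.92 and 0.79, so they are no separate check. Whether the probe reads the KI and WT alleles alike is not given in the sources used here, so it does not check the labels. Of 20 measured SAGA and deubiquitinase genes, Eny2 was the 1 that rose. Eny2 is a subunit of the module that holds Atxn7. It read -0.79, -0.46 and -0.12 in 3 P22 mice and -0.10 to 0.51 at week 11 (0.69 ± 0.17, adjusted p = 0.0403), a call that held in 8 of 21 alternatives. It ended when slide (0.56) or scan day (0.70) was the block, without any of week 11 mice 15, 16, 19, 22 and 34, and in the fit without P22 mouse 11, which had no usable Eny2 value.

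Several genes of the myelin sheath fell. Of 27 measured genes of myelin and mature oligodendrocytes, 7 fell and none rose, among them Cldn11, Ugt8a, Mal, Tspan2, Aspa and Fa2h. The list median was -0.88, against -0.02 over all genes, and 25 of 27 were lower at week 11. In WT the list median was -0.57 with 4 genes falling, where 355 of 17509 genes passed in either direction (2.03%). In this bulk tissue fewer oligodendrocytes and less RNA per oligodendrocyte cannot be told apart.

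Cldn11, the claudin that seals the layers of the sheath, stood at 0.12, 0.27, 0.46 and 0.27 at P22 and between -2.67 and -0.82 at week 11, with a median of -2.23. All 6 older mice lay below all 4 younger ones, and the highest of the 6 was mouse 21. Its difference was -2.32 ± 0.35, a 5.00-fold fall (adjusted p = 6.03e-04). Ugt8a, the enzyme that makes the galactolipids of myelin, had the largest of the falls named here. It read -0.38, -0.10, 0.0013 and -0.70 at P22 and from -3.47 to -1.09 at week 11, with a median of -2.98. It fell by 2.44 ± 0.38, or 5.42-fold, and its other probe passed too. Mal, a small proteolipid of myelin membranes, lay within 1.35 to 1.69 in the P22 mice and from -1.05 to 0.31 later. The 4 P22 values of Mal were close together (SD 0.15), and mouse 21 again held the top of the older group (-2.12 ± 0.33, adjusted p = 9.20e-04).

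Fa2h, which hydroxylates the fatty acids of myelin galactolipids, fell from 0.56, 0.55, 0.78 and 0.23 to a median of -1.49. Mouse 21 was at -0.02 and the other older mice reached no higher than -1.24. Tspan2, a tetraspanin of oligodendrocytes, fell by 1.42 ± 0.28, and Aspa, which splits N-acetylaspartate, fell by 1.30 ± 0.26. Other myelin genes were lower without passing. Mag, an adhesion protein of the sheath, differed by -0.92 ± 0.35 (adjusted p = 0.242) and passed with slide as a block (-0.93). Mbp, which compacts the sheath, was saturated on all P22 arrays and on 1 week 11 array at its brightest probe, so no size is given. It did not pass there (adjusted p = 0.209), and its second probe differed by 0.40 the other way. Car2, carbonic anhydrase of oligodendrocytes, differed by -0.76 ± 0.30. Of the 7 genes, the calls of Cldn11, Ugt8a and Mal held in all 25 alternatives, that of Aspa ended without P22 mouse 13, and that of Fa2h without any of P22 mice 11, 12 and 13 or week 11 mice 15, 16, 22 and 34. The list's count was 3 of 21 genes with a value without P22 mouse 13, and 4 with scale normalization and 3 with median centring.

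Genes of earlier stages of the lineage were among the falls. Of 19 genes of newly formed oligodendrocytes 3 fell and none rose, with a list median of -0.17. Enpp6, a phosphodiesterase that marks the newly formed cells, stood at -1.53, -0.99, -1.18 and -1.16 at P22 and from -3.35 to -1.85 at week 11. The ages did not overlap, and the fall of 1.34 ± 0.26 was carried by both of its probes. Rras2, a small GTPase, fell by 0.81 ± 0.17 and Bmp4, a secreted bone morphogenetic protein, by 0.57 ± 0.13, the latter a call that ended without any P22 mouse and without week 11 mice 15, 16 or 22. The calls of Enpp6, Rras2 and Bmp4 all ended with scale normalization or median centring. Of 15 precursor genes, Ptprz1 alone fell. Ptprz1, a receptor phosphatase of precursors and astroglia, read -0.17, -0.25, -1.21 and -1.25 at P22 and had a median of -2.86 at week 11. It fell by 2.08 ± 0.39 (4.24-fold), without overlap, while a second probe gave -0.33 and did not pass. With scale normalization the call of Ptprz1 ended. Sox10, the transcription factor of the lineage, differed by -0.40 ± 0.20 and did not pass.

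**Figure D1:**
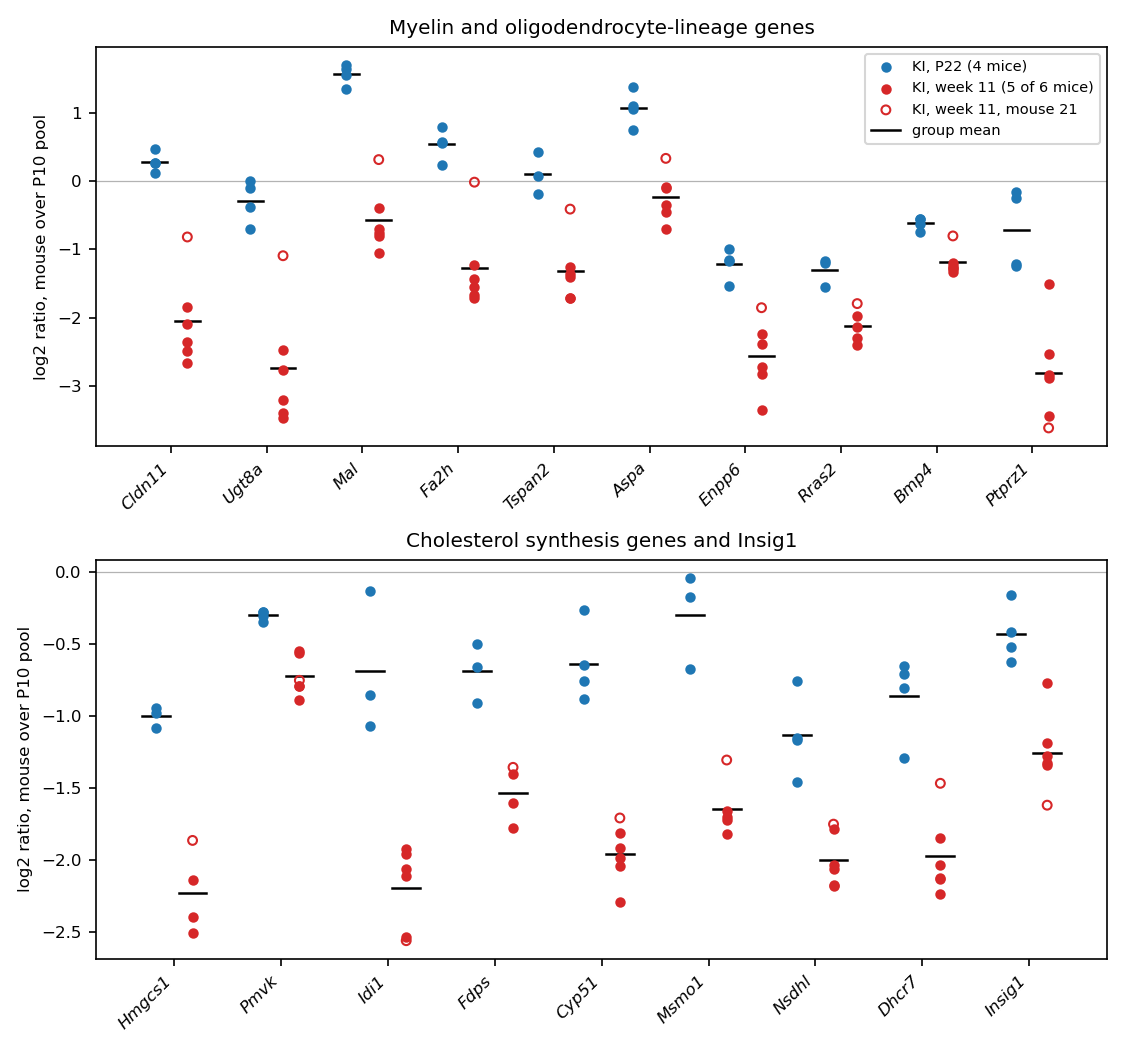
Log2 ratio of each KI mouse to the P10 pool (vertical axis) for oligodendrocyte-lineage genes (top) and for cholesterol genes (bottom), with P22 in blue, week 11 in red, mouse 21 as an open circle and group means as bars; spots marked as outliers by the scanner software are left out. Cldn11, Ugt8a and Mal show the 6 week 11 mice below the 4 P22 mice, with mouse 21 nearest to them.

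Genes at several steps of cholesterol synthesis fell. Cells build cholesterol from acetyl-CoA through mevalonate, isoprenoids, squalene and sterols, and the transcription factor SREBP-2, made from Srebf2, switches these genes on together when sterols run low. Of 22 measured genes 10 fell and none rose, among them Hmgcs1, Pmvk, Idi1, Fdps, Cyp51, Msmo1, Nsdhl, Dhcr7 and Insig1. The list median was -0.67, and 21 of 22 genes were lower. In WT the median was -0.49 with 3 genes falling.

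Because 10 genes of this list fell, the 250 bases before the annotated start of 3 of them are shown from RefSeq, build GRCm38.p6, 5′ to 3′ on the strand of the gene. Capitals mark CCAAT, the NF-Y box, or its reverse complement, and TCACNCCAC, a form of the sterol regulatory element, on both strands. The regions are chr5:4104698-4104947 (minus strand) for Cyp51, chr13:8885356-8885605 (plus strand) for Idi1 and chr13:119690101-119690350 (plus strand) for Hmgcs1.
Cyp51: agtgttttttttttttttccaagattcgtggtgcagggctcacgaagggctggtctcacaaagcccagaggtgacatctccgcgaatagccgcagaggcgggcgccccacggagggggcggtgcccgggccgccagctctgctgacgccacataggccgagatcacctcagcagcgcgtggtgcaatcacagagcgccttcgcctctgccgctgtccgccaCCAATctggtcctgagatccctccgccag
Idi1: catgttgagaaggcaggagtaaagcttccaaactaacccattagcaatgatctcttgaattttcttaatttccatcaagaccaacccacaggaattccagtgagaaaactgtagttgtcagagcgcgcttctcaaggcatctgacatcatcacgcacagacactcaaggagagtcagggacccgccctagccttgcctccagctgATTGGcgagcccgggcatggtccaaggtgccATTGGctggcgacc
Hmgcs1: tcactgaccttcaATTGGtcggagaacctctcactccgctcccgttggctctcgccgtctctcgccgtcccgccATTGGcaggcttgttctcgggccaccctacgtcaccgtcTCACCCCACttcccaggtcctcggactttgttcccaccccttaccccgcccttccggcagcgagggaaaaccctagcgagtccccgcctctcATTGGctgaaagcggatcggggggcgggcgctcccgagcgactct
CCAAT stood in the windows of all 16 list genes that had an entry, against 37.5% of 27025 genes with a promoter entry. The sterol element stood in 1 of the 16, Hmgcs1, against 1.22%. A match is a description of these letters and not a bound site, and no match says only that this spelling is not in the window.

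Hmgcs1, which makes HMG-CoA, read -0.98, -0.94 and -1.08 in 3 P22 mice and -2.51 to -1.87 in 4 week 11 mice, with no overlap. It fell by 1.23 ± 0.29 (2.34-fold, adjusted p = 0.0314), a call that ended without week 11 mice 19, 22 or 34, with scan day as a block (-1.04), and in the fit without P22 mouse 13, which had no usable Hmgcs1 value. Idi1, which isomerises the isoprenoid unit, dropped from -0.86, -0.13 and -1.07 to a median of -2.09 (-1.51 ± 0.24, 2.85-fold, adjusted p = 0.00139). Fdps, which joins isoprenoids into farnesyl diphosphate, fell by 0.85 ± 0.17 at 1 probe and differed by -0.11 at another. Pmvk, a kinase of the mevalonate steps, fell by 0.42 ± 0.10, the smallest of the 10 falls.

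Genes of the sterol end of the pathway fell as well. Cyp51, lanosterol demethylase, was at -0.88, -0.64, -0.26 and -0.76 at P22 and from -2.30 to -1.71 at week 11, with a median of -1.95. All 6 older mice, mouse 21 at -1.71 among them, were below all younger mice. Its fall of 1.32 ± 0.15 (2.50-fold) had an adjusted p of 1.38e-05, and it passed in all 25 alternatives. Msmo1, the next oxidase, fell by 1.35 ± 0.26, Nsdhl by 0.86 ± 0.14 and Dhcr7, the last reductase, by 1.11 ± 0.19, with no overlap between the ages for any of the 3. Insig1, which holds SREBPs in the endoplasmic reticulum, fell by 0.83 ± 0.18. Srebf2 itself was at -0.67, -0.84, -0.52 and -0.80 at P22 with a week 11 median of -0.64. Its difference of 0.10 ± 0.17 was within the error and turned to -0.0076 without mouse 21. The other probes of Srebf2 differed the other way, by -0.336 and -0.145, and neither passed. The call of Insig1 ended without P22 mouse 11 or 13, that of Fdps without week 11 mouse 15, and that of Pmvk without any P22 mouse or week 11 mice 15, 16 or 19, or with slide as a block (-0.34). Of the list, 3 of 16 genes with enough arrays passed without P22 mouse 11, 3 of 17 without mouse 13 and 5 of 15 without mouse 17. With scale normalization 2 of 22 passed and with median centring 1, with list medians of -0.58 and -0.55.

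Genes that handle finished cholesterol moved both ways. Of 16 genes of cholesterol export and of the liver X receptors (LXR) 2 rose and 1 fell, and the list median was 0.08. Srebf1, the lipogenic SREBP and an LXR target, went from -0.33, -0.63, -0.44 and -0.26 to between 0.04 and 0.54 (0.64 ± 0.14, adjusted p = 0.0189). Nr1h3, which encodes LXR alpha, rose by 0.58 ± 0.13, and neither gene overlapped between the ages. Cyp46a1, the neuronal enzyme that turns cholesterol into 24-hydroxycholesterol for export from the brain, was at 0.41, 0.44, 0.35 and 0.20 at P22 and from -0.22 to -0.10 later (-0.52 ± 0.10, adjusted p = 0.00499). The Srebf1 difference was 0.05 from the Cy5 channel alone, and its call ended without P22 mouse 12 or 13. With slide as a block the calls of Cyp46a1 (-0.36, adjusted p = 0.0526) and Srebf1 (0.46, adjusted p = 0.0645) ended. That of Nr1h3 ended without any of 7 mice, P22 mice 11, 12, 13 and 17 and week 11 mice 15, 16 and 34.

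Most clock genes measured were higher at week 11. The circadian clock is a loop in which Arntl and Clock drive Per and Cry genes, whose products shut them off, and levels follow the time of day. Of 18 measured genes 3 rose and none fell, 14 were higher, and the list median was 0.45 (0.08 in WT). The labels give no hour of killing, so its part in the result was not tested.

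Per2, a repressor of the loop, stood at 0.14, 0.38, 0.09 and 0.82 at P22 and from 0.66 to 2.13 at week 11, with a median of 1.53. P22 mouse 17 reached into the range of the older mice. The rise of 1.12 ± 0.23 (2.18-fold, adjusted p = 0.00971) came from 1 probe, and the second probe of Per2 differed by -0.01. Ciart, a repressor of the same loop, read 0.55, 0.24, 0.31 and 0.92 and then 1.24 to 1.63 in 5 week 11 mice (0.90 ± 0.19, adjusted p = 0.0150). Nr1d2, a nuclear receptor that represses Arntl, rose by 0.71 ± 0.17. Cry1, Per1 and Tef differed by 0.52 ± 0.24, 0.40 ± 0.21 and 0.75 ± 0.24, and none of these passed. Arntl and Clock, the activators, differed by -0.20 ± 0.30 and 0.12 ± 0.15. The calls of Per2 and Ciart ended without P22 mouse 13, Per2 also without mouse 11 and Ciart without mouse 12, and that of Nr1d2 without week 11 mouse 15 or 22 or with slide as a block (0.63). None of 14 clock genes with a value passed in limma without P22 mouse 13, 1 of 14 did without mouse 11, and 1 of 18 with scale normalization or median centring.

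The promoter of Ciart is shown because it carried the most copies of the E-box CACGTG, the letters bound by the Arntl and Clock pair, of the list. The 250 bases before its start, chr3:95882229-95882478 (minus strand, RefSeq, GRCm38.p6), hold 3 copies, in capitals. The box is its own reverse complement, so both strands match at once.
Ciart: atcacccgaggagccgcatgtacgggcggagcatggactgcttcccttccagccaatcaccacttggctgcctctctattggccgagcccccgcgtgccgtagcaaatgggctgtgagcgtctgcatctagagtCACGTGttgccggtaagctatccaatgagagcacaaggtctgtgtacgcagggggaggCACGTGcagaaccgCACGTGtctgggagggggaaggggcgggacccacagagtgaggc
An E-box was found in 5 of the 15 clock genes with an entry (Per1, Cry1, Tef, Ciart and Bhlhe41), against 6.86% of all genes. The D-box TTANNTAA was in 2 of 15, against 6.3%.

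Genes of antigen presentation and the interferon response were higher at week 11 in nearly the whole list. MHC class I molecules display peptides, cut by the immunoproteasome, to T cells, and interferons raise these genes. Of 25 measured genes 3 rose and none fell, 24 were higher, and the list median was 0.56. In WT the median was 0.03, and no gene passed in limma (6 had an unadjusted p under 0.05). The summed Cy5 signal of 23 of its genes ran from 34490 to 41060 in the P22 mice and from 55220 to 88740 at week 11, without overlap. The list median per mouse did overlap, from 0.31 to 0.92 at P22 and from 0.09 to 1.41 at week 11, with mouse 21 at 0.09 and the other older mice at 1.14 or above.

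H2-K1, a class I heavy chain, was at 1.07, 0.86, 0.94 and 0.80 at P22 and from 1.27 to 2.10 at week 11. The lowest of the older mice was mouse 21, still above all 4 younger ones. It rose by 0.97 ± 0.17 (1.96-fold, adjusted p = 0.00346), and 3 of 3 probes had this direction. Class I genes are close copies of each other, so their probes may share signal. Psmb9, a catalytic subunit of the immunoproteasome, rose by 0.85 ± 0.20, where mouse 21 at 0.15 lay among the P22 mice.

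B2m, the light chain of class I, differed by 1.01 ± 0.30 and H2-D1 by 0.55 ± 0.15, and neither passed (adjusted p = 0.0926 and 0.0654). Ifit1, an interferon-induced RNA sensor, went from 1.35, 0.82, 1.34 and 1.15 to a median of 2.67, but mouse 21 stood at 0.75, below every P22 mouse. It did not pass (1.25 ± 0.37, adjusted p = 0.0924). Without mouse 21, 9 of the 25 genes rose. With scale normalization none did, and without P22 mouse 12 or 17, 1 of 24 did. The call of Psmb9 ended without P22 mice 11, 12 or 17 or week 11 mice 15, 16, 22 or 34. The interferon-stimulated response element, searched by its core on both strands, was in the 250 bases before the start of 9 of 19 list genes with an entry, against 3.46% of all genes, but in neither of the 2 called genes with an entry. The kappa B site, searched likewise, was in 2 of 19, H2-K1 and H2-D1, against 0.344%. Class II genes were higher without passing: H2-Aa differed by 0.66 ± 0.25, Cd74 by 0.50 ± 0.19 and H2-Eb1 by 0.37 ± 0.12. Blocks changed these calls: with slide as a block H2-Aa (0.89), Cd74 (0.84), H2-Eb1 (0.46), H2-D1 (0.61) and B2m (1.03) all passed, as they did with scan day as a block or slide as a random block. Week 11 mice 19, 21 and 34 shared no slide or scan day with a P22 mouse. A slide or scan day block therefore gives these mice little weight. H2-Aa, Cd74, H2-Eb1 and H2-D1, but not B2m, also passed with the week 11 mice of slides 5 and 8 left out. Without mouse 21 H2-Eb1 (0.45), H2-D1 (0.63) and Ifit1 (1.58) passed.

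**Figure D2:**
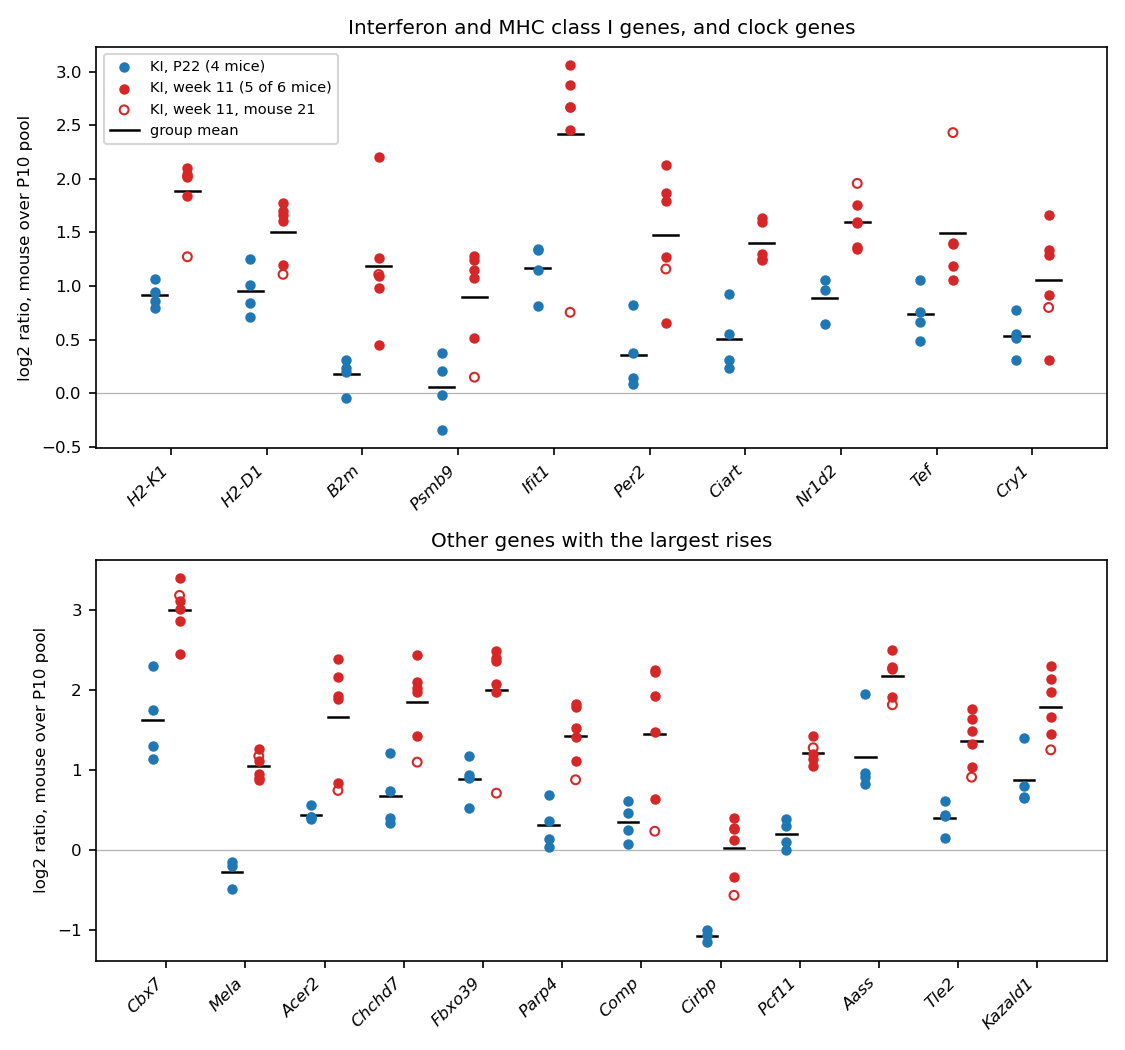
Log2 ratio of each KI mouse to the P10 pool (vertical axis) for interferon, MHC class I and clock genes (top) and for the other largest rises (bottom), with P22 in blue, week 11 in red, mouse 21 as an open circle and group means as bars. Ifit1 shows mouse 21 at 0.75, below the 4 P22 mice, while Cbx7 shows it at 3.18 among the other week 11 mice.

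The largest rise was that of Cbx7, a Polycomb protein that reads methylated histone H3. Cbx7 stood at 1.75, 1.30, 1.14 and 2.30 at P22 and from 2.45 to 3.40 at week 11, with a median of 3.07. The ages did not overlap, mouse 21 was at 3.18, and the rise was 1.38 ± 0.19 (2.61-fold, adjusted p = 2.91e-04). It held without each mouse in turn and was lost with scale normalization. Mela followed, at -0.19, -0.14 and -0.49 in 3 P22 mice and 0.87 to 1.26 at week 11, a rise of 1.32 ± 0.15 (adjusted p = 1.38e-05). Acer2, an alkaline ceramidase that releases sphingosine, rose by 1.21 ± 0.24 at 1 of its 3 probes, while the others differed by 0.27 and -0.45. Parp4, the poly(ADP-ribose) polymerase of vault particles, rose by 1.11 ± 0.19 without overlap and passed in all 25 alternatives.

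Cirbp, a cold-inducible RNA-binding protein, was at -1.07, -0.99 and -1.16 in 3 P22 mice and from -0.57 to 0.40 at week 11 (1.10 ± 0.18, adjusted p = 0.00201). Every older mouse was above the younger ones, and the P22 values were close (SD 0.081). Chchd7, a mitochondrial protein, rose by 1.17 ± 0.28 at 1 probe and differed by 0.07 at the other. Its call ended without P22 mice 11, 12 or 13 or week 11 mice 15, 16 or 22. Aass, which starts lysine breakdown, rose by 1.01 ± 0.21, with P22 mouse 17 at 1.96 inside the range of the older mice, and its call ended without P22 mouse 11, 12 or 13 or with slide as a block (0.65). Comp, a pentameric matrix protein, Tle2, a corepressor, Kazald1, a secreted protein with a Kazal domain, Fbxo39, an F-box protein, and Pcf11, a factor of transcript cleavage, rose by 0.91 to 1.12. Each of these 5 lost its call without P22 mouse 12, all but Pcf11 also without P22 mouse 11 or week 11 mouse 15, 16 or 22, and Fbxo39 in every such fit but that without mouse 21 and also with slide as a block (1.23). Pcf11 passed at 1 of its 4 probes, the others differing by 0.19 to 0.28, and the mean of its probes (0.41) did not pass. Nfe2l2, the antioxidant regulator NRF2, was not well above background on any P22 array at the probe that passed (adjusted p = 0.0159), so no fold is given. Week 11 mice 19 and 21, at 0.14 and 0.07, lay near the highest P22 mouse at 0.08, and the call ended without P22 mouse 12, 13 or 17. The other 3 Nfe2l2 probes differed by 0.01 to 0.10, and none of these passed. Mthfd1l, a mitochondrial folate enzyme, rose by 0.85 ± 0.12 (adjusted p = 2.91e-04) with no overlap.

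Besides myelin, the largest falls covered glia, matrix and signalling. Agt, angiotensinogen of astrocytes, was at -0.24, -0.31, -0.10 and 0.24 at P22 and had a median of -1.96 at week 11. It fell by 1.69 ± 0.24 (3.23-fold, adjusted p = 2.91e-04) without overlap and was the 1 gene of 22 in the Bergmann glia and astrocyte list that passed. Gja1, the gap junction protein of astrocytes, differed by -0.62 ± 0.18, and Glul, glutamine synthetase, by -0.72 ± 0.24, both without passing. Both passed with slide as a block (-0.73 and -1.05), and Gja1 also without mouse 21 (-0.75). Slc4a7, a sodium bicarbonate cotransporter, read -0.08, -0.12, -0.92 and -0.55 and then a median of -2.41 (-2.01 ± 0.37, adjusted p = 0.00393). Rhbdf2, the inactive rhomboid iRhom2, fell by 1.95 ± 0.30, and Rab7b, a late endosomal GTPase, by 1.79 ± 0.24. Serpinb2, plasminogen activator inhibitor 2, stood at 2.16, 2.00, 1.70 and 2.08 at P22 and between -0.28 and 0.39 at week 11, and it fell by 1.90 ± 0.21 (3.73-fold, adjusted p = 1.38e-05).

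Grp, gastrin-releasing peptide, fell by 1.84 ± 0.41 from P22 values as far apart as -0.21 in mouse 13 and -2.17 in mouse 17, so the ages overlapped, and the call ended without P22 mice 11, 12 or 13 or week 11 mouse 15. Slc38a5, a glutamine transporter, fell by 1.91 ± 0.28, with 3 usable P22 mice. Col1a1, a chain of collagen I, was at 0.15, -0.62, -0.10 and -1.12 and dropped to a median of -2.55 (-1.92 ± 0.38, adjusted p = 0.00806) at 1 of 3 probes, the others differing by -0.65 and -0.03, and without P22 mouse 11 or 13 or with slide as a block (-1.55) it did not pass. Fmod, a collagen-binding proteoglycan, rose by 0.73 ± 0.17, a call that ended without P22 mice 11, 12 or 17 or week 11 mice 15, 16 or 22, so the 18 genes of meninges and fibroblasts held 1 rise and 1 fall.

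In the matrix list of 21 genes, Efemp1, a fibulin, rose by 0.89 ± 0.16, and Sparc, a glycoprotein of vessels and glia, fell by 0.77 ± 0.17, beside Ptprz1. The call of Sparc ended without P22 mice 11, 13 or 17 or week 11 mice 15 or 16, and with median centring. That of Efemp1 ended with scale normalization. Of 12 insulin-like growth factor genes the binding protein Igfbp4 rose by 0.66 ± 0.16 and Igfbp3 fell by 1.10 ± 0.21, where P22 mouse 17 stood at 1.13 and the other younger mice between 0.27 and 0.32. The call of Igfbp4 ended without P22 mice 11, 12 or 13 or week 11 mice 22 or 34 and with the mean of its probes. Nor did it pass when slide (0.29) or scan day (0.48) was the block. Igfbp3 lost its call with median centring. In the glucocorticoid list of 18 genes, Pdk4, a kinase that slows glucose oxidation, rose by 0.71 ± 0.16 and Arrdc2, an arrestin-like protein, by 0.73 ± 0.18. Lcn2, a lipocalin of innate immunity, fell by 1.45 ± 0.35 and Cdkn1a, the p21 inhibitor, by 0.82 ± 0.21. All 4 calls ended without P22 mouse 11 or week 11 mouse 22 and, but for Lcn2, without P22 mouse 12 or with slide as a block (0.51 for Pdk4, 0.69 for Arrdc2 and -0.89 for Cdkn1a). Cdkn1c, an imprinted inhibitor of the cell cycle, fell by 0.83 ± 0.16, a call that ended with scale normalization or median centring. Of 22 endothelial and pericyte genes 3 fell: Cldn5, the claudin of the blood-brain barrier, by 0.81 ± 0.14, Kdr, the VEGF receptor, by 0.94 ± 0.22 and Slco1a4, a transporter, by 0.70 ± 0.18. The call of Cldn5 held without each mouse in turn but ended with scale normalization or median centring. Of the list, 1 gene passed without P22 mice 11, 12 or 13 or week 11 mice 15, 16 or 22. The median of that list was 0.07, and it was below 0 with a block for slide or for scan day, with array weights and from the Cy5 channel alone.

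Neuronal lists held few calls. Of 24 Purkinje genes 1 fell, Stmn4, a stathmin of microtubules, from 0.06, -0.04, 0.30 and -0.36 to between -0.71 and -0.47 (-0.55 ± 0.13, adjusted p = 0.0256). That call ended without P22 mouse 11, 12 or 13 or week 11 mouse 22, or with slide as a block (-0.52). The list median was -0.26, against 0.06 in WT, and 21 of 24 genes were lower, against 9375 of 17601 over all genes. Bcl11a and Ebf2, transcription factors, differed by -0.49 ± 0.17 and -0.33 ± 0.18 without passing, and Bcl11a passed without mouse 21 (-0.62). None of 26 granule neuron genes, 16 GABA and glycine receptor genes, 21 glutamate receptor genes, 20 genes of oxidative phosphorylation or 24 cell cycle genes passed in limma, and at an unadjusted p under 0.05 these lists held 0, 1, 3, 1 and 1 genes. Lower at week 11 were 9 of 26 granule neuron, 14 of 16 GABA and glycine receptor and 19 of 21 glutamate receptor genes. So were 13 of 20 genes of oxidative phosphorylation and 14 of 24 cell cycle genes. The lean of the Purkinje list was thus shared by both receptor lists.

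**Figure D3:**
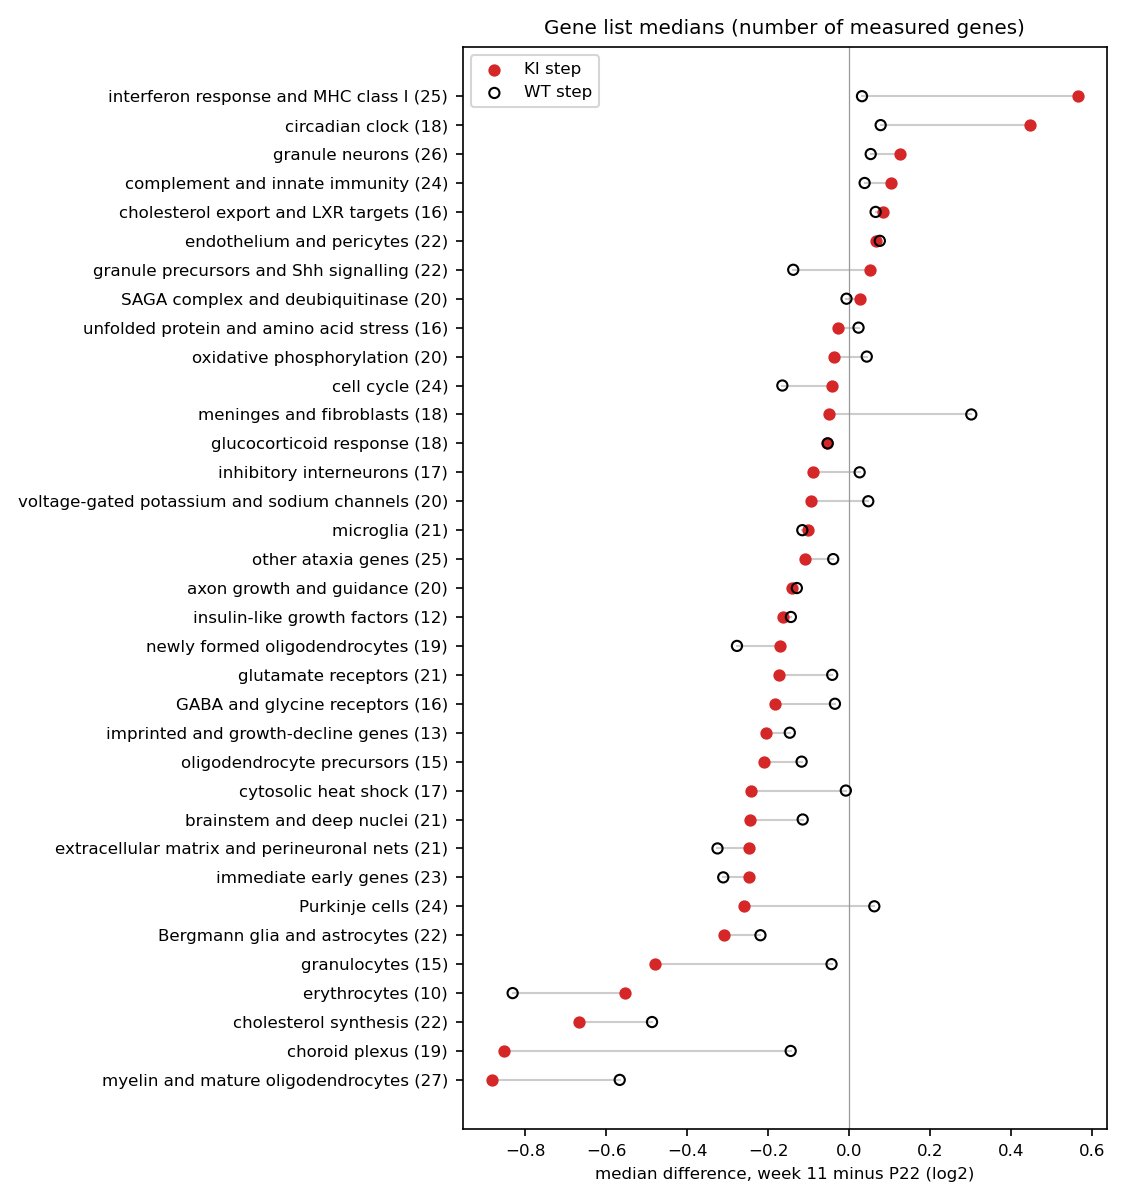
Median log2 difference of each gene list, week 11 minus P22 (horizontal axis), in KI mice (filled) and in WT mice (open), with the number of measured genes beside the name. Myelin has the lowest KI median (-0.88), followed by choroid plexus (-0.85) and cholesterol synthesis (-0.67), and interferon with MHC class I has the highest (0.56).

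Most genes of choroid plexus, blood and granulocytes were lower at week 11, and their part in the results above was not tested. Choroid plexus genes were lower at week 11 in 19 of 19 cases, with a median of -0.85, and none passed in limma (6 had an unadjusted p under 0.05). The list median per mouse was -0.94, -0.71, 0.50 and 1.33 in P22 mice 11, 12, 13 and 17, and from -1.13 to -0.02 at week 11. P22 mice 13 and 17 thus stood above the others. The summed Cy5 signal of 16 of its genes ran from 19000 to 71290 at P22 and from 11520 to 32400 at week 11, and no member was below background on all 10 arrays. Ttr, the secreted marker of this epithelium, read -3.77, 0.93 and 2.16 in 3 P22 mice, and Aqp1, its water channel, -1.30, -1.25, 0.06 and 1.47. The myelin and cholesterol lists were lower within slide 4 and slide 7, with median differences of -1.26 and -0.43 for myelin and of -0.998 and -0.352 for cholesterol, and in those slides the choroid plexus median difference was -1.33 and -2.50. The myelin list median per mouse ran from 0.26 to 0.95 at P22 and from -0.71 to 0.06 at week 11. That of the cholesterol list ran from -0.74 to -0.43 and from -1.36 to -0.89. Whether the amount of choroid plexus in a sample bears on these values was not tested.

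Erythrocyte genes were lower in 10 of 10 cases, with a median of -0.55, and 1 of the 10 fell. The list median per mouse did not overlap, from -0.20 to 0.01 at P22 and from -0.98 to -0.46 at week 11. In WT the median was -0.83. Their summed Cy5 signal for 7 genes ran from 19050 to 21890 and from 9927 to 12910. Eraf, the alpha-haemoglobin stabilising protein, is held by the list as Ahsp. Its probe was read under the symbol Eraf and is not counted among the 10. Eraf fell by 2.13 ± 0.49, a call that ended without P22 mice 11, 12 or 13 or week 11 mice 15, 16 or 22. Alas2, which makes haem in red cell precursors, differed by -1.87 ± 0.59 without passing and passed with slide as a block (-2.21).

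Granulocyte genes, a list chosen after the data were seen, held 4 falls among 15: Chil3, Prg2, Lcn2 and S100a9. S100a9, a calcium-binding protein of neutrophils, was at 2.47, 0.78, 2.09 and 1.63 at P22 and from -1.08 to 1.02 later (-1.78 ± 0.46, adjusted p = 0.0461). P22 mouse 12 overlapped with the older mice, and the call ended without P22 mice 11, 13 or 17 or week 11 mice 16, 21, 22 or 34. Fitted with slide (-1.44) or scan day (-1.29) as a term it did not pass. Chil3, a chitinase-like protein of myeloid cells, fell by 1.23 ± 0.24 and Prg2, the major basic protein of eosinophils, by 1.33 ± 0.28, and both calls ended without P22 mouse 11. The list's summed Cy5 signal ran from 4273 to 9904 at P22 and from 2255 to 4465 at week 11, 6 of 15 members were well above background on all 10 arrays, and none was below it on all. In limma no gene of the list passed without P22 mouse 11, 1 did without mouse 13, and 2 did without P22 mouse 17 or week 11 mice 16, 22 or 34.

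**Figure D4:**
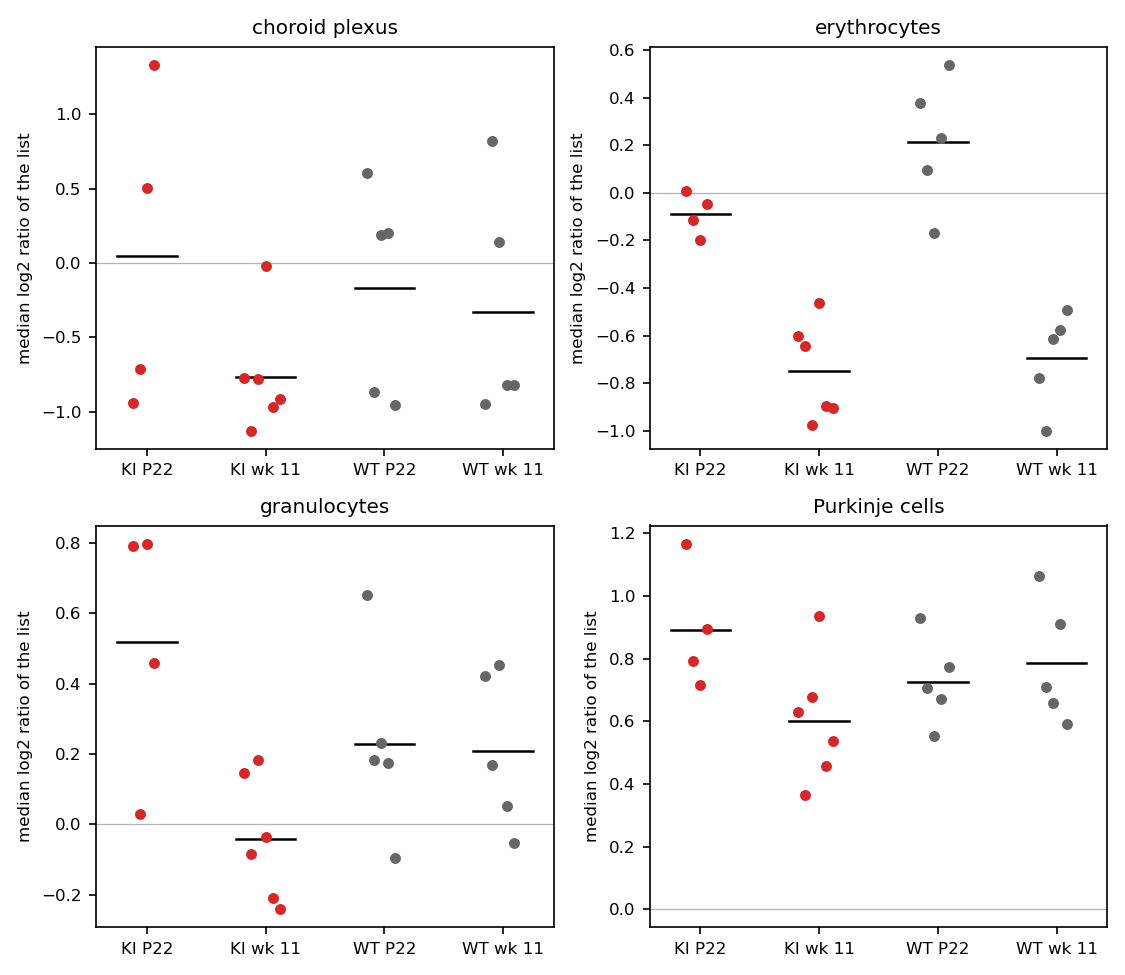
Median log2 ratio of each list per mouse (vertical axis) for choroid plexus, erythrocyte, granulocyte and Purkinje genes in KI mice (red) and WT mice (grey) at P22 and week 11, with group means as bars. The KI choroid plexus values at P22 spread from -0.94 to 1.33, while the erythrocyte values of the ages do not overlap.

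Whether the KI change differed from the WT change was tested by the difference of the steps, KI minus WT. The WT mice share no array with the KI mice but share the reference pool and the estimate of spread. Of 33187 probes none passed in limma (0% of those tested), the smallest adjusted p was 0.520, and 1851 had an unadjusted p under 0.05. In WT, 597 of 35087 probes passed (1.7%). Of the 451 probes that passed in KI and were tested in WT, 432 had the same sign there and 150 passed, all 150 in the same direction. These 150 are 33.3% of the KI set and 26.8% of the 559 WT probes tested in KI. Over the 451, whose choice used the KI values, the median size of the difference was 0.69 in KI and 0.42 in WT. Over all probes the steps correlated at r = 0.457, as a description.

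The count of 0 held with every normalization and filter tried but not with every model. It was 1058 with slide as a block, 367 with scan day as a block and 28 with array weights, and 1 or 2 without KI week 11 mouse 19 (1) or 21 (2) or WT week 11 mouse 23 (1). With slide as a block the WT side of the contrast rests on WT P22 mouse 26, the only WT mouse of that age on a slide with another age.

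Mela had the smallest p of the difference: it rose in both genotypes, by 1.32 in KI and by 2.31 in WT, so the difference of the steps was -0.99 ± 0.19 (adjusted p = 0.520). Per2 differed by 1.12 in KI and by -0.36 in WT (difference 1.49 ± 0.32, same adjusted p). Mthfd1l stood at 0.85 in KI and 0.04 in WT, with a difference of 0.81 ± 0.17. Lig4, a DNA ligase, differed by -0.09 in KI and rose by 0.53 in WT. Plat, tissue plasminogen activator, Cpsf4l, a relative of a cleavage factor, Esd, an esterase, Prkg1, the cGMP-dependent kinase, and Mycbpap were also among the 10 smallest, with differences of the steps from -1.36 (Cpsf4l) to 1.33 (Plat). None of the 10 passed. In the KI step the second probes of Cpsf4l and Plat differed by 0.16 and 0.07, against -1.42 and 0.63 at the probes used. The other probes of Esd differed by -0.08 and -0.02 and those of Prkg1 by -0.07 and 0.04, against -0.41 and -0.43.

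Of the lists, the step of all 24 Purkinje genes was more negative in KI than in WT, against 57.4% of all genes, and that of 24 of 25 interferon genes was more positive, against 42.6%. No member of either list passed the test of the difference, apart from 1 interferon gene with slide as a block. The Purkinje lean was not particular to that list. More negative in KI were also 18 of 19 choroid plexus genes, 14 of 15 precursor genes and 16 of 18 genes of meninges and fibroblasts. Of 23 cell cycle genes and 18 clock genes, 4 each were more negative. The median difference of the steps was -0.71 for choroid plexus and -0.29 for Purkinje genes. The Purkinje count was 15 of 24 with slide as a block (55.3% of all genes), 17 of 24 with scan day as a block (55.1%) or slide as a random block (56.8%), and 19 of 24 from the Cy5 channel alone (73.3%). The interferon count stayed at 21 of 25 or more in the alternatives that measured all 25 genes. For myelin the step was more negative in KI for 22 of 26 genes and for cholesterol for 19 of 22. With scan day as a block these counts were 14 of 26 and 14 of 22, and with slide as a block 17 of 26 and 13 of 22, against the shares of all genes given for those blocks. Cldn11 fell by 1.78 and Ugt8a by 1.51 in WT, with differences of the steps of -0.54 ± 0.49 and -0.93 ± 0.53. The KI P10 mice, set beside these only as levels, averaged -0.54 ± 0.94 (SD, n = 5) for Cldn11 and -0.10 ± 0.18 for Cyp51.

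**Figure D5:**
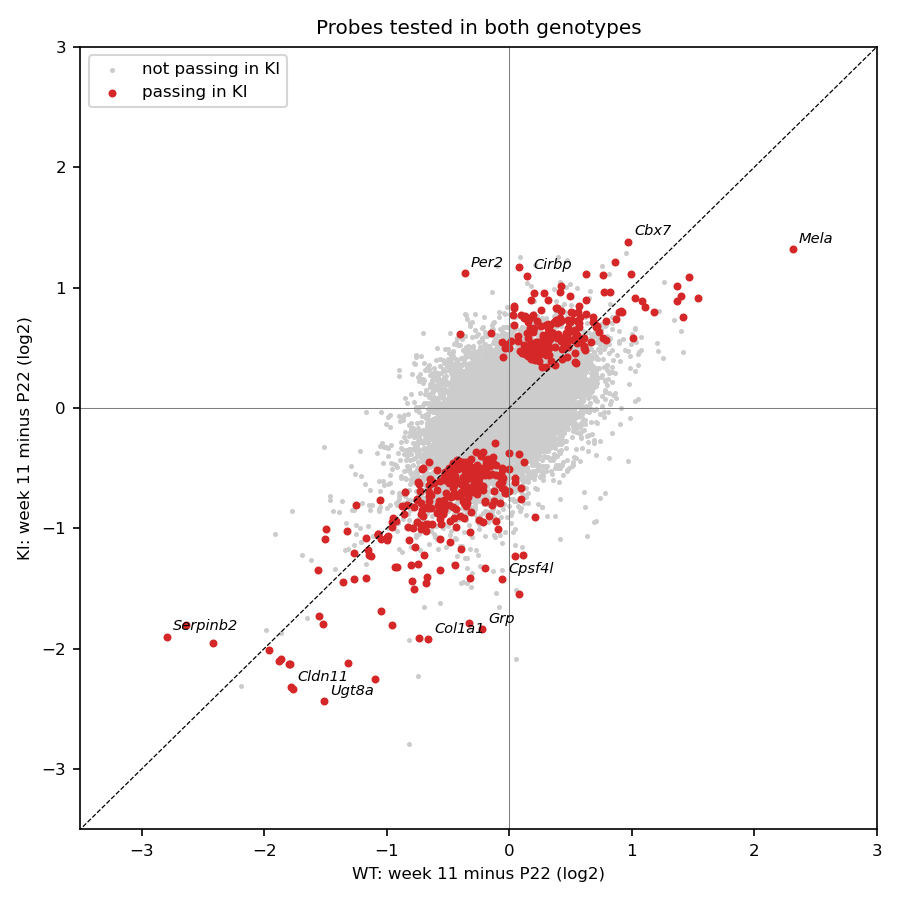
Log2 difference between week 11 and P22 in WT mice (horizontal axis) and KI mice (vertical axis) for 33187 probes, with probes that passed in KI in red and a dashed line where the steps are equal. Most red points lie in the quadrants where both genotypes moved the same way, 432 of 451.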

How the data were processed

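Each of the 30 arrays was a 2-colour Agilent scan. Per the file headers, the deposited scanner files hold spot intensity in Cy5 and Cy3 with local backgrounds, flags, and Agilent log10 ratios used only as an alternative. The authors' own deposited log2 values, normalised in BRB-ArrayTools, cover probes that they filtered for present calls and variability, per the labels' design text. These 1905 rows, 4 of them controls, ran as Cy3 over Cy5 (r with scanner log ratios from -0.9997 to -0.9613) with column medians of 0.388 to 1.14 for these mice, so their centring is unknown. Their sign was turned, and the controls left out, for an alternative. In limma 3.58.1 (R 4.3.3), mean signals were corrected by normexp (offset 50), normalised by loess within arrays, and spots of a probe averaged. Control and outlier spots were left out. Of 41174 probes, 35598 had Cy5 well above background on at least 4 arrays, and a comparison needed 3 usable arrays per group. One model with 6 group means over 30 arrays was fitted with eBayes and checked on simulated data. Of the 454 probes called, 72 lacked a value on at least 1 array.

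Symbols came from RefSeq tables (GRCm38.p6) through accessions (23075 probes), listed names (6582) or synonyms (3077), or from the files alone (557). The array was annotated on mm7, so no probe positions are given. Promoters and their coordinates came from the same RefSeq release. Genes named are Atxn7, the 15 largest rises and 15 largest falls that passed (1 probe per gene, Cy5 well above background on every usable array of a group), up to 4 members of each list with the smallest p, and the 10 smallest p of the difference of steps. Named after their values were seen were the other called myelin and cholesterol genes and Srebf2, Mbp, Mag, Car2, Sox10, Cry1, Per1, Arntl, Clock, B2m, Ifit1 and Ttr. Some genes that this rule names are not reported here, though counts and list medians include them. The samples compared and the lists were chosen with earlier results of these data known. Fits with slide, scan day, array weights, other normalisations, filters, channels and single mice left out were run as alternatives. The number of arrays limits the precision.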

Additional observations from a re-analysis of the deposited data

Results flagged for a closer look

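Among 266 sets of KI mice of 1 age (a gene or a list median), 28 had 1 mouse far from the others by Dixon's test. Chance gives this in about 1 of 20 separate sets that can be tested. The 266 include genes with only 3 usable P22 mice, which the test cannot flag. All sets share the same mice, so the shares cannot be compared directly. Week 11 mouse 21 was that mouse in 17 of them. In genes with a higher mean at week 11, its log2 ratio was 0.711 for Fbxo39, 1.27 for H2-K1, 0.754 for Ifit1 and 2.43 for Tef, the last above the other mice. In genes with a lower mean, it was -0.67 for Rhbdf2, -0.0183 for Fa2h, -0.74 for Agt, -0.412 for Tspan2, -0.805 for Bmp4 and 1.45 for Slco1a4. It was also apart for Mycbpap (0.157), Gja1 (0.182), Matn4 (-0.777), Steap1 (-0.465) and Car2 (0.998), and for the list medians of choroid plexus (-0.0224) and of interferon with MHC class I (0.0886).

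P22 mouse 17 stood apart for Aass (1.96), Lig4 (-0.258), Bcl11a (-0.886), Igfbp3 (1.13) and the glucocorticoid list median (0.765). P22 mouse 13 did for Acer2 (0.568), Prlr (0.502) and the matrix list median (-0.309), and P22 mouse 11 for Per1 (1.68). Week 11 mouse 19 stood apart for Prlr (-0.782) and mouse 34 for Arntl (-0.409).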

How the results depend on the processing

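The KI count of 454 probes was within 1.5 times without background subtraction, with other detection filters, with the Agilent log ratio and with the 10 arrays alone. It was 184 with scale normalization, 150 with median centring and 222 in the deposited table of 1905 rows, where fewer probes were tested. It was 1540 with slide as a random block, 1965 with a slide block, 1799 with a scan day block, 4244 with array weights, 2052 from Cy5 alone and 1093 without the mice of slides 5 and 8, an alternative chosen after seeing the data. Left out 1 at a time, mice gave 121 (P22 mouse 13) to 902 (week 11 mouse 21). In the same order the share of higher probes, 41.4% as reported, was 41.3%, 78%, 21.2%, 47.5%, 53.1%, 58.5%, 51.2%, 10.7% and 53.1%. The WT count of 597 was 95 with scale normalization, 1126 with median centring, 1057 on its own arrays, 1198 with slide as a block, 304 as a random block, 2743 with array weights, 368 from Cy5 alone, 127 in the deposited table, and 251 (without WT P22 mouse 30) to 905 (without mouse 26). The difference of steps went from 0 to 1058 with slide as a block, 367 with scan day, 28 with array weights, and 0 to 2 without single mice. The Atxn7 difference passed at 0.80 (slide), 0.71 (scan day) and 0.61 (array weights). Directions reversed for Lig4 with median centring (0.0668) and for Srebf2 with slide (-0.0487), scan day (-0.0551), array weights (-0.0557), Cy5 alone (-0.358), the mean of probes (-0.128), without week 11 mouse 21 (-0.0076, up to 0.167 without mouse 16) and without slides 5 and 8 (-0.117); the cause was not tested. Of 69 named genes that passed, 13 passed in all alternatives that could test them and 31 in all such fits without 1 mouse. Some genes with 3 usable P22 mice, among them Mela, Cirbp and Slc38a5, could be tested in only 7 of the 10 fits without 1 mouse. For these genes no fit without a usable P22 mouse was possible. Of the 69, 37 lost their call with scale normalization and 31 with median centring. No paired analysis was possible because each mouse has its own number, though slides and scan days that hold both ages served as blocks. Probes not well above background, or saturated, throughout a group give no exact size of a change.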
